A study of Mus musculus with 2 samples.

Results

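Meis1, Meis2, Meis3, Pbx2, Pbx3 and Pknox1 encode transcription factors of the TALE homeobox class, and their chromatin was compared between hematopoietic stem cells (HSCs) of young and aged mice. The 6 genes were chosen by name out of 21755 protein-coding genes on the autosomes and the X chromosome. Single-cell ATAC-seq, in which a transposase cuts open chromatin and each DNA fragment carries the barcode of its nucleus, was carried out on HSCs that had been sorted out of C57BL/6 bone marrow (female mice, per the methods). The sort kept Lin- cells with CD150, Sca-1 and c-kit, and took out those marked as CD48+, CD34+, Flt3+ or IL-7+, so Flt3, which is named below, was part of the gate. There was 1 library from mice 10 weeks of age (young) and 1 from mice 20 months of age (aged), the labels name no engineered allele and no treatment for either, and how many animals were pooled is not given in the sources used here. With 1 library per age there is no replicate, no test between the ages was possible, and every interval below is a 95% interval that covers counting error only.

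TALE proteins are homeodomain factors that bind DNA together with Hox proteins and with each other. MEIS and PKNOX1 (also called PREP1) proteins pair with PBX proteins, and this pairing keeps PBX in the nucleus and adds a second DNA contact to a Hox site. In blood, Meis1 is known for keeping HSCs in a resting, self-renewing state and for its part in leukaemia with Hoxa9, Pbx3 is known as a Hoxa9 partner in leukaemia, and Pknox1 is needed in early blood development. Meis2 is known mainly from the developing brain, heart and limb, Meis3 from the hindbrain and pancreas, and Pbx2 is broadly expressed.

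The young library gave 4887 cells and the aged library 3405 cells, which were the barcodes called as cells with 3000 to 20000 fragments in peaks. These cells held 50065741 and 38659456 fragments, with medians of 9888 young and 11019 aged fragments per cell. Levels are given as FPM, the fragments of a region per 1000000 fragments that lay in the combined peaks (34646256 such fragments young and 26153396 aged), and a ratio is the log2 of aged over young FPM with a pseudocount of 1 fragment. Short fragments, those under the length of DNA on a nucleosome, made up 59.8% of the young library and 55.0% of the aged one, and fragments outside peaks were more frequent in the aged library (log2 ratio 0.10). The part of these differences in the results below was not tested. The 2 sets of cells shared 26 barcodes. As a check of the cell label, the promoters of marker genes were compared per gene. Of the HSC-like markers, Slamf1, Ly6a and Kit encode CD150, Sca-1 and c-kit, which the sort selected. Of the T-like markers, Cd4 and Cd8a encode proteins that the methods list among the Lin markers. The check is therefore not independent of the sort. The median promoter had 18.5 FPM young and 19.3 FPM aged over 8 HSC-like markers and 23.3 and 20.4 FPM over 6 megakaryocyte-like markers, against 4.16 and 3.94 FPM for 6 erythroid-like, 2.22 and 2.26 FPM for 6 granulocyte-monocyte-like, 2.81 and 2.87 FPM for 6 B-like and 1.47 and 0.65 FPM for 6 T-like markers. By these medians the check set the cells apart from the last 4 types and not from megakaryocytes, but single markers went against it. Vpreb1 (B-like) had 31.9 FPM young and 29.4 FPM aged and Epor (erythroid-like) 26.2 and 25.2 FPM, above the HSC-like medians. Ly6a (HSC-like) had 3.002 and 2.829 FPM, below the erythroid-like medians. Mecom (HSC-like) had 0.52 and 0.54 FPM in its promoter window. Its gene body had 792 and 873 FPM, so that window alone does not show a closed gene.

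The 6 genes differ in length. Meis1 spans chr11:18879817-19018985 (mm10, minus strand, 139.2 kb), Meis2 spans chr2:115863064-116065839 (minus strand, 202.8 kb) and Pbx3 spans chr2:34171457-34373142 (minus strand, 201.7 kb). Pknox1 covers chr17:31564734-31607693 (plus strand, 43.0 kb), Meis3 covers chr7:16175090-16186504 (plus strand, 11.4 kb) and Pbx2 covers chr17:34591266-34597400 (plus strand, 6.1 kb). Sequences are shown for peaks of Meis1, Meis2 and Pbx3, the genes whose gene bodies or peaks are described at length below. For each gene, one peak was taken as the peak with the most fragments, one as the peak with the highest and one as the peak with the lowest ratio among peaks of the gene and its 100-kb flanks with at least 100 fragments in both libraries together. The peaks with the lowest ratio of Meis2 and Pbx3 are not printed. Each run is the plus strand of GRCm38.p6 (the sequence of mm10) from the RefSeq assembly, 5′ to 3′, over the central 300 bp of the peak or the whole peak where it is shorter, and capitals mark matches to any of 9 fixed words searched on both strands.

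The first 3 runs are the Meis1 peaks. The peak with the most fragments lay at chr11:18969860-18970489 in intron 7 of the principal transcript, 48.8 kb inside the gene, and its centre at chr11:18970025-18970324 held the GATA word AGATAA at 2 places and the PU.1 word AGGAAGT once.
Meis1 peak with the most fragments: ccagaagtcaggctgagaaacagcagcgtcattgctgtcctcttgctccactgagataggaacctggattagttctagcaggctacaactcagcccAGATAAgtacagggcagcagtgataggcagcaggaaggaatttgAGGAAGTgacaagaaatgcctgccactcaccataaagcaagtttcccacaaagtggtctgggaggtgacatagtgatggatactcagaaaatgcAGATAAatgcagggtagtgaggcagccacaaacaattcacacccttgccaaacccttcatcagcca
The peak with the lowest ratio lay at chr11:18885700-18886009 in intron 9, 133.1 kb inside the gene, and its centre at chr11:18885705-18886004 held a PBX-HOX word (TGATTTA) and, on the minus strand, a RUNX word (TGTGGT).
Meis1 peak with the lowest ratio: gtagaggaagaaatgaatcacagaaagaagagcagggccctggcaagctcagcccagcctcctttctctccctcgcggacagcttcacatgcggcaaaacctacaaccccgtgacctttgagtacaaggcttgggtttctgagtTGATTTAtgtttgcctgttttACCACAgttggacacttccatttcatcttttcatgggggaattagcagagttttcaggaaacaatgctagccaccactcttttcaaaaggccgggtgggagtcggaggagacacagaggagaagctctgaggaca
The peak with the highest ratio, chr11:19020960-19021119, lay 2.1 kb upstream of the gene in intergenic DNA and held none of the words.
Meis1 peak with the highest ratio: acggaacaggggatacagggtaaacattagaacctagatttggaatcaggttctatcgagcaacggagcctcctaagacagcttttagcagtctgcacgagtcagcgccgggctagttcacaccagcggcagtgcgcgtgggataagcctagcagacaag

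For Meis2, the peak with the most fragments lay at chr2:116049290-116050159, 16.1 kb inside the gene at an exon of one of its 19 transcripts, and the peak with the highest ratio at chr2:115910100-115910619 in intron 9, 155.5 kb inside the gene. Their centres are chr2:116049575-116049874, which held none of the words, and chr2:115910210-115910509, which held 1 GATA word.
Meis2 peak with the most fragments: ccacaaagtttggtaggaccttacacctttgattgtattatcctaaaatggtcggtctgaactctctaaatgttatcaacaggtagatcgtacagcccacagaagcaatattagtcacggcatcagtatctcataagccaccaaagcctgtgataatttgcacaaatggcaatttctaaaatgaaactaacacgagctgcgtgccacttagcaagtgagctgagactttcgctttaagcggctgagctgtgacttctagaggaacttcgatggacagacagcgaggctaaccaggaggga
Meis2 peak with the highest ratio: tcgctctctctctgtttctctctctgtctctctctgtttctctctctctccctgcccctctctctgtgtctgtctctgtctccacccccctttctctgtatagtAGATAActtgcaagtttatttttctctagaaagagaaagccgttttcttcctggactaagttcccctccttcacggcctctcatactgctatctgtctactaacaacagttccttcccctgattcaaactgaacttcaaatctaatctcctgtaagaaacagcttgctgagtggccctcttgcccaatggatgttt
For Pbx3, the peak with the most fragments was the promoter peak at chr2:34371910-34373389, whose centre at chr2:34372500-34372799 held 36 CpG dinucleotides and a MEIS word (TGACAG). The peak with the highest ratio, chr2:34453610-34454139, lay 80.7 kb upstream within Mapkap1, and its centre at chr2:34453725-34454024 held none of the words.
Pbx3 peak with the most fragments: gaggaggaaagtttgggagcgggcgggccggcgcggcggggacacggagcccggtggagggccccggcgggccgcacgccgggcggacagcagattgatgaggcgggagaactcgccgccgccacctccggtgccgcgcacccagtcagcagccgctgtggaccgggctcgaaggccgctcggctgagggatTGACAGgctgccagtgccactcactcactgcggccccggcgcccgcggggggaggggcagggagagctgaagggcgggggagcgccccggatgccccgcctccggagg
Pbx3 peak with the highest ratio: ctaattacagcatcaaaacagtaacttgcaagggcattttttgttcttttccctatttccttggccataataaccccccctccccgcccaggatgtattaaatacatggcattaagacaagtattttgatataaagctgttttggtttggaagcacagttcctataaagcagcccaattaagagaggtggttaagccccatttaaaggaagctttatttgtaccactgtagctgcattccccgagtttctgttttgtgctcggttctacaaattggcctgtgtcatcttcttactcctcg

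The promoters, taken as the annotated 5′ end of the gene with 1 kb on either side, stood in the same order in both libraries apart from neighbours whose intervals overlapped. Pknox1 had the most accessible promoter, with 90.0 FPM in young and 82.0 FPM in aged HSCs. Meis1 (41.3 and 42.9 FPM) and Pbx3 (41.3 and 41.8 FPM) followed and were not separated by their counting intervals at either age. Pbx2 had 28.9 FPM young and 27.0 FPM aged. Meis3 (10.8 and 12.3 FPM) and Meis2 (9.78 and 12.7 FPM) had the least accessible promoters and their intervals overlapped at both ages. Among 15024 promoters with at least 100 fragments, Pknox1 stood at percentile 98.4 of level and Meis2 at percentile 20.4. The Pknox1 promoter was also the richest in CpG of the 6 (204 CpG dinucleotides in the window, against a median of 62 over all promoters), followed by Pbx3 (149), Meis1 (101), Meis2 (84), Pbx2 (63) and Meis3 (61).

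A promoter or gene body was read as different by size where its ratio was at least 0.32 in either direction, and among the 6 promoters Meis2 was the one past this size. It held 339 fragments in the young and 331 in the smaller aged library, a log2 ratio of 0.37 (0.15 to 0.59), or 1.29-fold higher in aged HSCs. With the density of the flanking windows subtracted the ratio was 0.30, under that size. Of all promoters, 8.35% were higher in aged HSCs by that size and 2.6% were lower, so 1 of 6 is near the background and is not a result about the group. The Meis3 promoter (375 and 321 fragments) had a ratio of 0.18 (-0.04 to 0.40), and the Meis1 promoter (1431 and 1121 fragments) one of 0.05 (-0.06 to 0.17). The Pbx3 promoter was level at 0.02 (-0.10 to 0.13, 1430 and 1092 fragments). Pbx2 had a ratio of -0.10 (-0.24 to 0.04, 1000 and 705 fragments) and Pknox1 one of -0.13 (-0.21 to -0.05, 3118 and 2144 fragments). The median over all promoters was -0.05, and highly accessible promoters lay lower still, with a median of -0.10 in the top decile by level, which holds Pknox1. The Meis1 and Pbx3 promoters lay in a decile with a median of -0.08, in which they stood at percentiles 95.3 and 90.0 of the ratio. The Meis2 and Meis3 promoters lay in a decile with a median of 0.07, at percentiles 88.3 and 69.8. In that decile 15.3% of promoters were higher by the size above. Pbx2 and Pknox1 stood at percentiles 37.7 and 25.4 of their deciles.

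**Figure D1:**
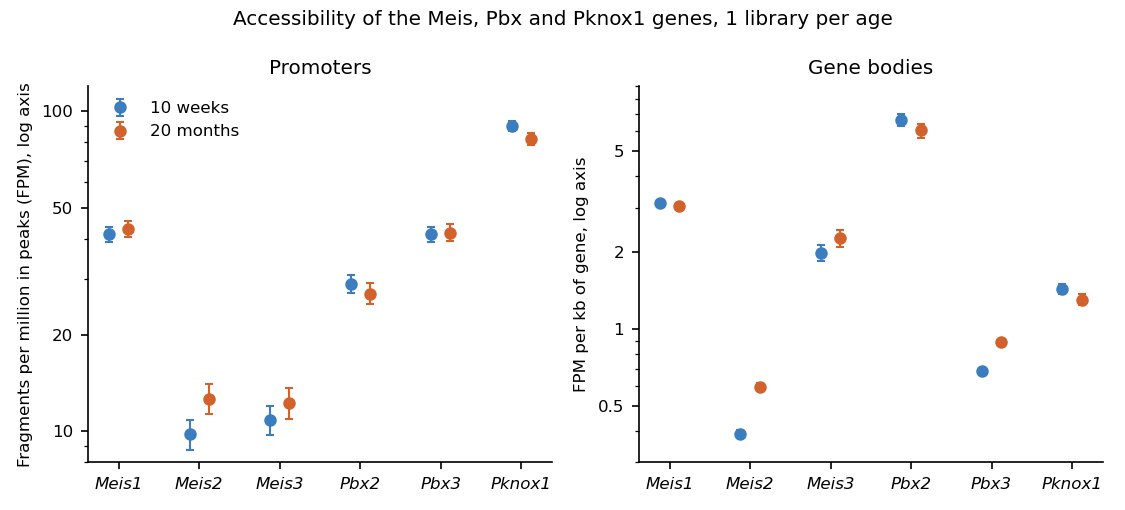
Accessibility of the 6 genes in the young (10 weeks, blue) and aged (20 months, orange) library. The left panel gives promoter FPM and the right panel FPM per kb of gene body, both on log axes, with exact 95% Poisson intervals, which are narrower than the points for the long genes. Meis2 and Pbx3 are the genes whose gene body points lie clearly apart, 78.9 against 120 FPM and 138 against 179 FPM before division by length.

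The 5′ end of Pbx2 as annotated lies inside the neighbouring gene Gpsm3, and the principal Pbx2 transcript starts within the same window. Around that start Pbx2 had 34.2 FPM young and 32.2 FPM aged, with a ratio of -0.09 (-0.22 to 0.04), which differed little from the value at the annotated end. The windows overlap and share fragments, so this likeness is no independent check. Within 500 bp of the annotated end there were 212 young and 162 aged fragments, a ratio of 0.02 (-0.29 to 0.32). Reads of the Pknox1 promoter cannot be told apart from those of an antisense gene (AC166172.4) and a miRNA gene (Gm24970) that start within 1 kb of it.

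Over the gene bodies, Meis2 and Pbx3 were higher in aged HSCs and the other 4 genes lay within 0.32 on the log2 scale. The Meis2 gene body held 2733 young and 3142 aged fragments, or 78.9 FPM against 120 FPM, a log2 ratio of 0.61 (0.53 to 0.68) and 1.52-fold. The Pbx3 gene body held 4778 and 4694 fragments, or 138 FPM against 179 FPM, a ratio of 0.38 (0.32 to 0.44) and 1.30-fold. Of 17691 gene bodies with at least 100 fragments, 8.29% were higher by at least 0.32 on the log2 scale and 2.6% were lower, against 2 and 0 of these 6. Meis2 stood at percentile 97.3 and Pbx3 at percentile 93.7 of the ratio among all gene bodies. Both are sparsely covered per kb, so each was also set beside gene bodies of like coverage. In the decile with the coverage of Meis2 (0.29 to 0.54 FPM per kb), 13.1% were higher by that size and Meis2 stood at percentile 95.1, and in the decile that holds Pbx3 (0.77 to 1.02 FPM per kb) 5.77% were higher and Pbx3 stood at percentile 95.9.

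Meis3, with 786 and 678 fragments over its gene body, had a ratio of 0.19 (0.04 to 0.34). Meis1 had the second densest gene body of the 6 after Pbx2, with 15112 young and 11031 aged fragments (436 and 422 FPM), and its ratio was -0.05 (-0.08 to -0.01). Pbx2 (1407 and 966 fragments) and Pknox1 (2141 and 1466 fragments) were both at -0.14, with intervals of -0.26 to -0.02 and -0.24 to -0.04. The median over all gene bodies was -0.02.

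**Figure D2:**
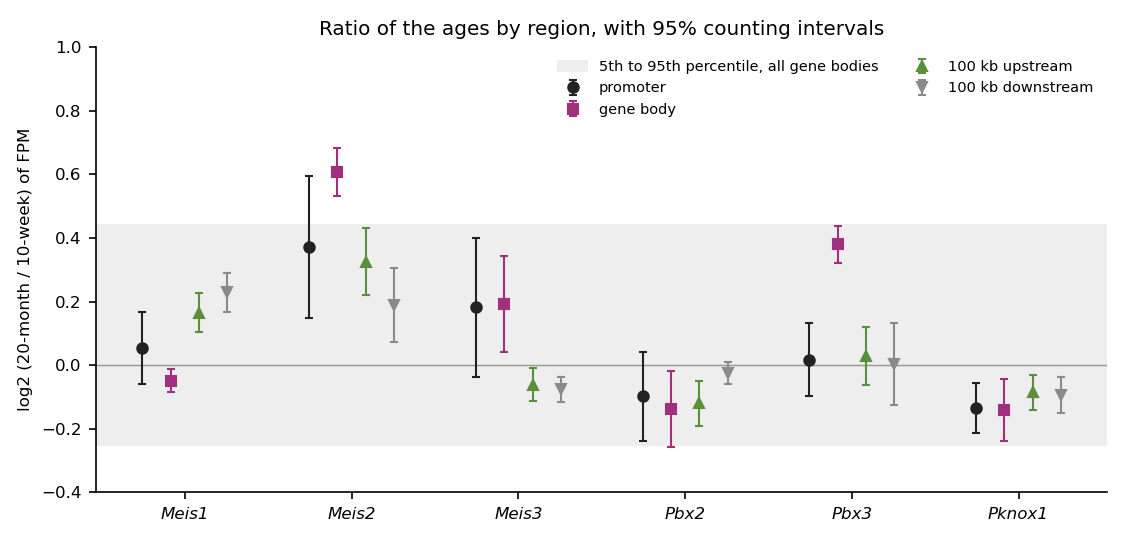
Log2 ratio of aged over young FPM at the promoter, the gene body and the 100 kb on either side of each of the 6 genes, with 95% counting intervals. The grey band runs from the 5th to the 95th percentile of all gene bodies (-0.25 to 0.44). The Meis2 gene body (0.61) lies above the band, the Pbx3 gene body (0.38) lies apart from its promoter and both flanks, and the Meis1 flanks (0.16 and 0.23) lie above the Meis1 gene body (-0.05).

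At Pbx3 the higher level in aged HSCs lay along the gene body, while its promoter and its flanks as a whole were near 0. The 100 kb upstream had a ratio of 0.03 (-0.06 to 0.12) and the 100 kb downstream 0.00 (-0.13 to 0.13). The upstream flank nevertheless held the peak with the highest ratio of the locus, shown above, with 41 young and 68 aged fragments (1.12, 0.56 to 1.73), and the lowest, with 138 and 95 fragments (-0.13, -0.53 to 0.25), lay in the downstream flank. Without the promoter window the gene body ratio was 0.48 (0.41 to 0.54). The higher level was spread along the gene and not held by a few peaks. Outside the combined peaks, which leaves 95.5% of the length, Pbx3 had 1547 young and 1815 aged fragments, a ratio of 0.64 (0.54 to 0.73). Fragments inside its peaks had a ratio of 0.24 (0.17 to 0.31), but many of them belong to the promoter peak, which was level. The 13 peaks of the gene body with at least 100 fragments, that peak included, had a median ratio of 0.36. Of 39 windows of 5 kb within the gene with at least 50 fragments, 38 had a higher FPM in the aged library and 19 were higher by at least 1.5-fold. Over the autosomes and X, 55.4% of such windows were higher in the aged library and 12.2% by at least 1.5-fold. Upstream of Pbx3 11 of 17 windows were higher and downstream 7 of 19.

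The shoulder of the Pbx3 promoter showed the same contrast on a small scale. The strong promoter peak at the CpG-rich 5′ end, shown above, had 1499 young and 1153 aged fragments and a ratio of 0.03 (-0.08 to 0.14). The neighbouring peak just inside the gene, chr2:34371510-34371759, had 97 and 131 fragments and a ratio of 0.84 (0.45 to 1.23), and the next one, chr2:34371050-34371409, had 163 and 188 fragments and a ratio of 0.61 (0.30 to 0.92). Both lie just 5′ of the start of a shorter annotated transcript, Pbx3-209, whose window of 1 kb on either side held 9.78 FPM young and 15.5 FPM aged (0.67, 0.45 to 0.88). That window contains both peaks, so its value repeats fragments already counted. The window of 5 kb on either side of the gene's 5′ end had a ratio of 0.20 (0.10 to 0.29), while 500 bp on either side gave -0.01 (-0.13 to 0.12), and 1 kb on either side of the start of the principal transcript gave 0.13 (0.01 to 0.24). Within intron 2 of Pbx3, peaks at chr2:34278710-34279359 (50 and 66 fragments) and chr2:34231370-34231909 (103 and 131 fragments) had ratios of 0.80 (0.25 to 1.37) and 0.75 (0.37 to 1.14), and the strongest intronic peak, chr2:34359830-34360429 (466 and 385 fragments), had one of 0.13 (-0.07 to 0.33). The reads inside Pbx3 cannot be told apart from those of an antisense gene, C79798, that lies within it.

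At Meis2 the upstream flank, the gene body and the downstream flank were each higher in aged HSCs as a whole, though not at every place, since 21 of 27 covered 5-kb windows of the gene body had a higher FPM in the aged library and 6 did not. The ratios were 0.32 (0.22 to 0.43) over the 100 kb upstream and 0.54 (0.44 to 0.65) within 5 kb of the 5′ end. They were 0.61 over the gene body and 0.19 (0.07 to 0.31) over the 100 kb downstream. The downstream interval holds the 0.10 of all fragments outside peaks. Upstream 7 of 8 covered 5-kb windows were higher in the aged library and downstream 5 of 9, against 55.4% of all such windows, so the downstream flank was near the background. Within the gene body, fragments in peaks and outside them had ratios of 0.67 (0.57 to 0.77) and 0.52 (0.41 to 0.64), with intervals that overlapped. All 11 peaks of the gene body with at least 100 fragments had a ratio above 0, and for 9 of them the interval lay above 0. Of all 97256 combined peaks with at least 100 fragments, 50.2% had a ratio above 0, 18.7% an interval above 0 and 14.9% an interval below 0. The strongest, shown above, had 284 young and 305 aged fragments and a ratio of 0.51 (0.27 to 0.75), and the one with the highest ratio had 47 and 72 fragments and a ratio of 1.01 (0.47 to 1.58). Besides the highest, intron 9 held 2 more peaks past 1.5-fold, chr2:115890660-115891669 (99 and 145 fragments, 0.95, 0.58 to 1.34) and chr2:115915030-115915479 (87 and 116 fragments, 0.82, 0.41 to 1.24).

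Near the 5′ end of Meis2, inner start sites had ratios above that of the outermost one, with intervals that overlapped. The start of transcript Meis2-210, which lies inside the gene, had 377 young and 461 aged fragments and a ratio of 0.70 (0.50 to 0.90), against 0.37 at the gene's annotated 5′ end. The transcript starts Meis2-202 and Meis2-211 had ratios of 0.57 (0.33 to 0.80) and 0.51 (0.28 to 0.74). The Meis2-202 window overlaps that of the annotated 5′ end, and the Meis2-211 window contains the Meis2 peak with the most fragments, so these values repeat fragments already counted. Just upstream, the promoters of the lincRNA genes G630016G05Rik and 2700033N17Rik, which start within 2 kb of Meis2 and partly share its reads, had ratios of 0.51 (0.32 to 0.71) and 0.59 (0.38 to 0.81). Of the 21 peaks of the locus with at least 100 fragments, 2 had a ratio below 0, both downstream, and 1 of them was past 1.5-fold. At chr2:115777530-115777829, beyond the 3′ end of Meis2 and inside the gene BC052040, there were 109 young and 47 aged fragments, a ratio of -0.79 (-1.33 to -0.30).

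**Figure D3:**
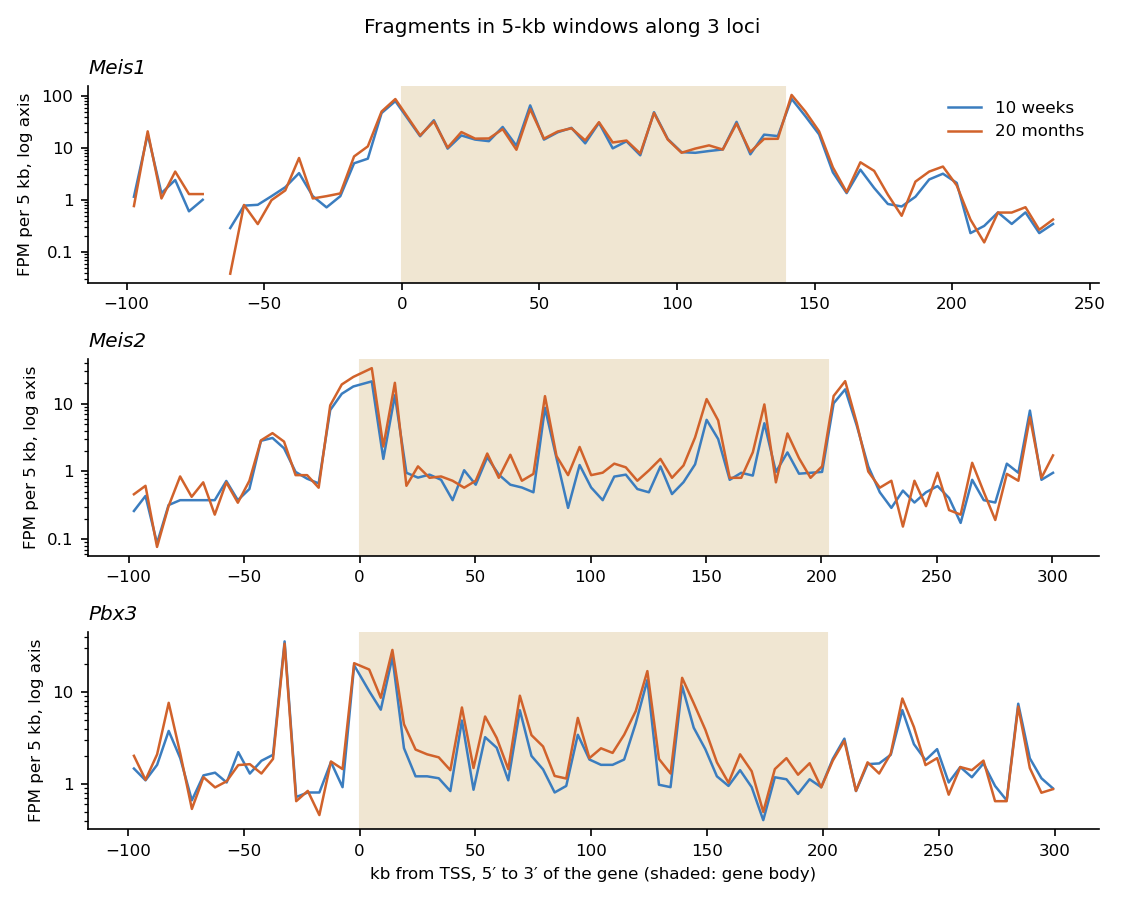
Fragments in 5-kb windows along Meis1, Meis2 and Pbx3 with 100 kb on either side, in FPM on a log axis against the distance from the TSS in the direction of the gene, for the young (blue) and aged (orange) library. Shading marks the gene body, and 1 window upstream of Meis1 without any fragment is not drawn. The orange line lies above the blue one in 38 of 39 sufficiently covered windows of Pbx3 and in 21 of 27 of Meis2, and the lines of Meis1 nearly coincide inside the gene.

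At Meis1 the ratio was near 0 over the gene as a whole, lower at peaks within the gene and higher in its flanks. Its gene body is filled with peaks, 36 in all, of which 24 had at least 100 fragments. Of these 24, 17 had a ratio below 0 and 5 an interval below 0, while none had an interval above 0, so the number with an interval below 0 is not far from the 14.9% of all peaks. In the 100 kb downstream all 11 peaks with enough fragments had a ratio above 0, with a median of 0.30, and in the 100 kb upstream 8 of 10 did, but the interval lay above 0 for 3 of the 11 and 2 of the 10, near the 18.7% of all peaks. The flank ratios were 0.16 (0.10 to 0.23) upstream and 0.23 (0.17 to 0.29) downstream. Within the gene body, fragments in peaks had a ratio of -0.15 (-0.20 to -0.10), and those outside peaks 0.05 (0.00 to 0.10), which is near the 0.10 of all fragments outside peaks. The 24 peaks of the gene body had a median ratio of -0.07. Over all combined peaks with at least 100 fragments, the 25th and 75th percentiles were -0.17 and 0.25. The Meis1 peaks were not set beside peaks of like level.

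The peak with the most fragments at Meis1, in intron 7, was lower in aged HSCs, though by less than 1.5-fold. It held 1459 fragments in young and 854 in aged HSCs, or 42.1 FPM against 32.7 FPM. Its ratio was -0.37 (-0.49 to -0.24). The next strongest intronic peak, chr11:18924650-18925439 in intron 8, 93.9 kb inside the gene, held 1134 and 742 fragments and had a ratio of -0.21 (-0.34 to -0.07). The peak with the lowest ratio, in intron 9, held 4.36 FPM young and 2.75 FPM aged (-0.65, -1.09 to -0.25). A peak at chr11:18883510-18884029 near the 3′ end, which touches an annotated UTR, held 255 young and 133 aged fragments (-0.53, -0.85 to -0.23). A smaller peak of intron 7, chr11:18983690-18984179, held 191 and 103 fragments (-0.48, -0.85 to -0.13). The Meis1 promoter peak itself was level, at 0.04 (-0.09 to 0.16). Of the 45 Meis1 peaks with at least 100 fragments, 1 was lower by at least 1.5-fold (2.22%), the peak with the lowest ratio. That share was 4.0% over all such peaks, whose ratios had a 5th percentile of -0.53.

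Upstream of Meis1 neighbouring peaks differed in direction. The strong peak at chr11:19020340-19020849, 1.6 kb upstream, was level at -0.03 (-0.18 to 0.12, 837 and 619 fragments), and the narrow peak next to it, which had the highest ratio of the locus, held 95 young and 129 aged fragments (0.84, 0.45 to 1.24). At 5.7 kb upstream the peak chr11:19024520-19024789 was lower in aged HSCs (357 and 224 fragments, -0.26, -0.51 to -0.02), and at 10.98 kb upstream the peak chr11:19029880-19030049 was higher (54 and 71 fragments, 0.79, 0.27 to 1.34). Downstream, the peaks lay around the noncoding gene 8430419K02Rik and just past the 3′ end of Meis1, and the highest was chr11:18876710-18876829 (104 and 125 fragments, 0.67, 0.28 to 1.06).

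Meis3, Pbx2 and Pknox1 sit among other genes, and most peaks of their flanks belong to neighbours. None of the 28 Meis3 peaks and none of the 16 Pknox1 peaks with enough fragments reached 1.5-fold in either direction, and 1 of 27 Pbx2 peaks did, chr17:34640770-34641279 in the lincRNA gene Gm20461, with 276 young and 334 aged fragments (0.68, 0.45 to 0.92). At Meis3 the highest ratio, 0.48 (0.00 to 0.97), belonged to a peak in Slc8a2 and the lowest, -0.53 (-1.10 to -0.01), to a peak in Dhx34. The lowest at Pbx2, -0.48 (-0.93 to -0.06), lay in Atf6b, and at Pknox1 the ratios ran from -0.25 to 0.53. The flanks of these 3 genes had ratios between -0.12 and -0.02. Single stretches went further than the peaks. Between 5 and 10 kb upstream of Pknox1 there were 132 young and 53 aged fragments (-0.89, -1.40 to -0.44). Of 20 covered 5-kb windows upstream of Pknox1, 6 had a higher FPM in the aged library.

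Over the 6 loci together, 154 of 243 peaks had at least 100 fragments. Of these, 17 (11%) were higher in aged HSCs by at least 1.5-fold and 2 (1.3%) were lower, against 9.63% and 4.0% of all 97256 such peaks, so the loci taken as one group were near the background. They were uneven among themselves. Meis2 had 8 of 21 peaks past that fold (38.1%) and Pbx3 5 of 17 (29.4%), Meis1 had 3 of 45 (6.67%), and the other 3 genes had 1 in all. The 500-bp bins tiled over the loci were counted likewise. Of 356 bins with at least 100 fragments, 32 (8.99%) were higher by at least 1.5-fold and 3 lower, against 9.01% and 2.9% of all bins, and 18 of the 32 lay at Meis2, where 41 bins were counted. Of those 41 bins, 20 lay in the gene body and 12 of them (60.0%) passed the fold. Pbx3 had 4 of 24 bins past the fold, all within the gene, and Meis1 had 4 of 133.

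**Figure D4:**
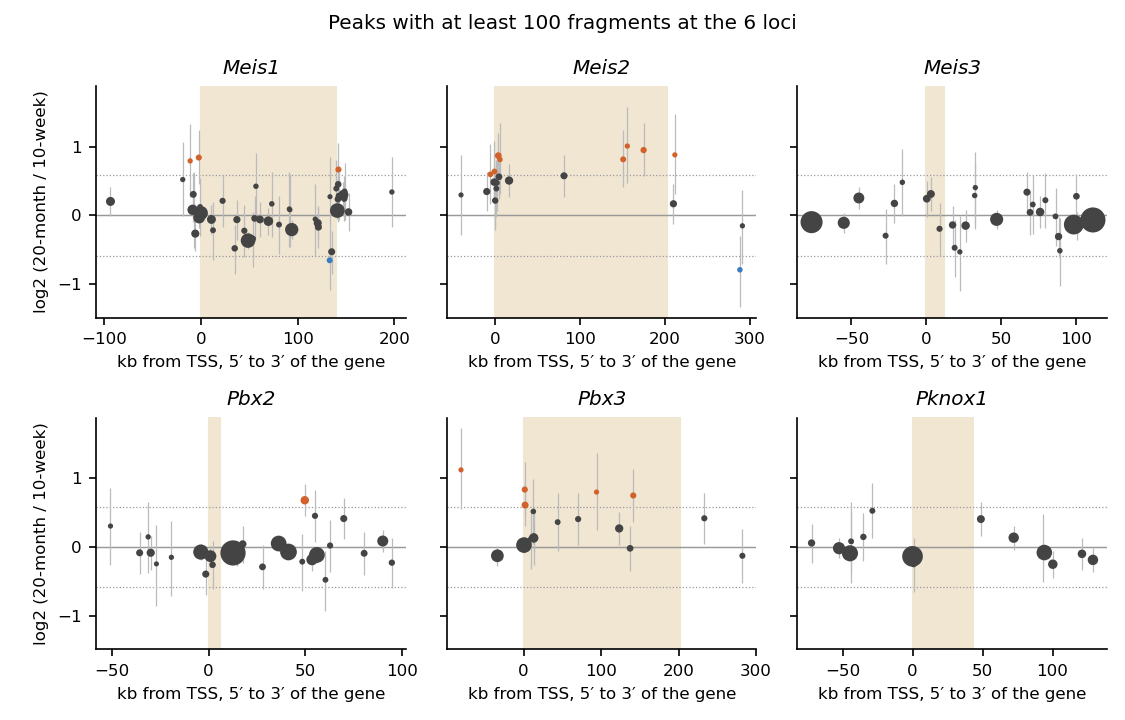
Log2 ratio of aged over young FPM for every peak with at least 100 fragments, against its distance from the TSS in kb, with 95% counting intervals in grey. The area of a point grows with its FPM, shading marks the gene body, dotted lines mark 1.5-fold, and peaks past it are orange (higher) or blue (lower). Meis2 and Pbx3 have 8 and 5 orange points, and the large points of Meis1 inside the gene lie below 0.

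The 9 fixed words of TALE factors and other factors of blood cells were counted over the central 300 bp of the 154 peaks and of all combined peaks with at least 100 fragments. A MEIS word (TGACAG) was held by 31 of the 154 peaks (20.1%) and by 18.9% of all 97256 such peaks. The PBX-HOX word (TGATTTA) was held by 3 peaks (1.95%, against 3.25%) and the PBX-MEIS word (TGATTGA) by 4 (2.60%, against 2.16%). The ETS word (CCGGAAG) was held by 11 peaks (7.14%, against 4.39%), the GATA word (AGATAA) by 13 (8.44%, against 11.7%) and the RUNX word (TGTGGT) by 27 (17.5%, against 25.7%). The PU.1 word (AGGAAGT) was held by 16.9% against 18.2%, the AP-1 word (TGAGTCA) by 10.4% against 8.26% and the E-box (CAGCTG) by 14.3% against 18.3%. A match is a description of the letters and not of a bound site, and MEIS and PBX-MEIS words can overlap on composite sites.

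To compare cells at equal depth, each cell was thinned at random to 3000 of its in-peak fragments, and 4787 young and 3271 aged cells were deep enough for this. A fragment in the Meis2 gene body was seen in 21.04% (19.9 to 22.2, exact binomial) of young and 29.3% (27.7 to 30.9) of aged cells, and in the Pbx3 gene body in 33.5% (32.2 to 34.9) and 41.9% (40.2 to 43.6). Meis1 was covered in most cells at both ages, 72.2% (70.9 to 73.4) and 70.7% (69.1 to 72.2). At the promoters the shares were 11.3% and 12.6% for Meis1, 11.5% and 11.2% for Pbx3, 23.3% and 21.8% for Pknox1, 8.56% and 8.10% for Pbx2, and 2.80% and 3.82% for Meis2. Without thinning, a fragment was seen in 40.045% of the 4887 young and 54.9% of the 3405 aged cells at the Meis2 gene body, and in 59.5% and 70.2% at the Pbx3 gene body. Such a share is the chance of catching a fragment at this depth and not the share of cells with an open gene. The variance of fragments per thinned cell over the mean was 1.09 young and 1.12 aged at the Meis2 gene body and 1.04 and 1.03 at Pbx3. Without thinning, where cells also differ in depth, it was 1.18 and 1.37 at Meis2 and 1.17 and 1.28 at Pbx3. Thinned cells held means of 0.25 to 0.55 fragments at these gene bodies. At so few fragments the value stays close to 1 for many kinds of spread, so it cannot show how the difference was distributed over cells. The largest number in one thinned cell was 5 at either gene body in the aged library.

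**Figure D5:**
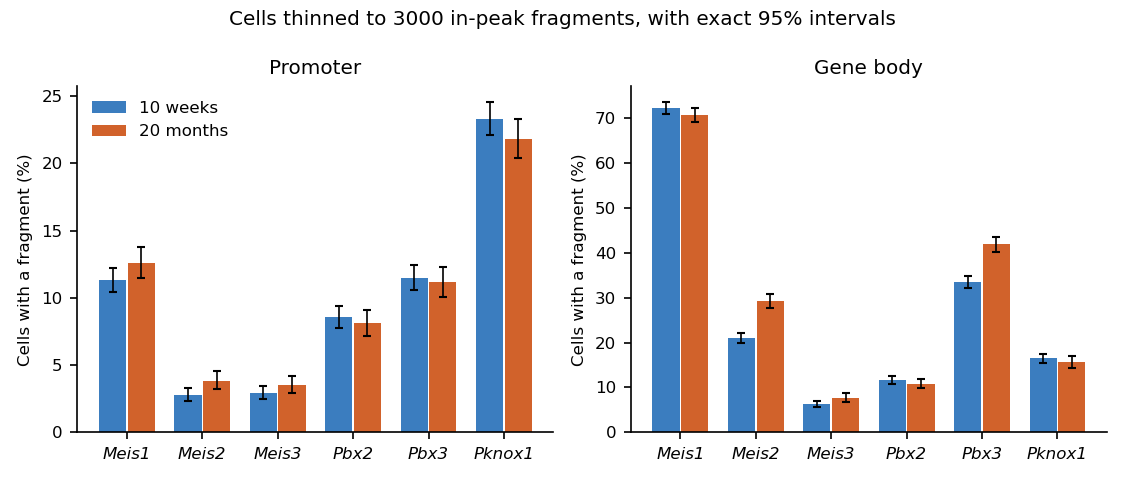
Share of cells with at least 1 fragment at the promoter (left) and over the gene body (right) of the 6 genes, after each cell was thinned to 3000 in-peak fragments, with exact 95% binomial intervals, young in blue and aged in orange. Bars start at 0. The intervals of the ages do not overlap for the Meis2 and Pbx3 gene bodies (21.04% against 29.3% and 33.5% against 41.9%).

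Related genes were read from 3 lists. Of 11 other TALE genes, all had enough fragments at promoter and gene body, and 4 promoters and 4 gene bodies were higher by at least 0.32 on the log2 scale and none lower, with medians of 0.21 and 0.31 against -0.05 and -0.02 over all genes. Over all genes 8.35% of promoters and 8.29% of gene bodies were higher by that size. Within the decile of promoter level that holds Meis2, 15.3% of promoters were higher by that size. The higher ones belonged to the Irx genes, which pattern the embryo, and to Mkx, a regulator of tendon. Irx2 held 9.93 young and 17.9 aged FPM at its promoter (0.85, 0.65 to 1.05) and Irx1 7.79 and 12.3 FPM (0.66, 0.43 to 0.90), on weakly accessible promoters like that of Meis2. Other weak promoters of the list stayed under that size. These were Irx4 (2.97 young FPM, 0.31, -0.11 to 0.72), Irx3 (9.81 young FPM, 0.21, -0.02 to 0.43), Irx5 (11.8 young FPM, 0.08, -0.14 to 0.29) and Pknox2 (16.4 young FPM, 0.07, -0.12 to 0.25). The TALE genes with strong promoters were level or slightly lower. Tgif1, a corepressor in TGF-beta signalling, had 50.9 and 49.1 FPM (-0.05, -0.16 to 0.05), Pbx4 54.4 and 46.5 FPM (-0.23, -0.33 to -0.12) and Tgif2 44.0 and 37.6 FPM (-0.23, -0.34 to -0.11).

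Of 12 Hox genes of the Hoxa and Hoxb clusters, the DNA-binding partners of MEIS and PBX, 11 promoters had enough fragments, and 3 were higher by at least 0.32 on the log2 scale and none lower, with a median of 0.07, against 8.35% and 2.6% of all promoters. Hoxb7 (0.94, 0.73 to 1.15) and Hoxb6 (0.50, 0.32 to 0.69) had the largest ratios, and Hoxa9, the main partner of Meis1 in leukaemia, had 20.2 young and 18.3 aged FPM (-0.15, -0.32 to 0.02). Neighbouring Hox promoters share fragments and are not independent. Of 12 genes known to be bound or regulated by Meis1 in stem cells or leukaemia, 10 promoters had enough fragments, with a median of -0.18. The promoter of Flt3, a cytokine receptor whose bearers the sort took out, was the one lower by at least 0.32, with 33.8 young and 25.5 aged FPM (-0.41, -0.55 to -0.27), and none was higher by that size. Over the gene bodies of these 12 the median was -0.04, and Epas1, a hypoxia factor, was the one higher by that size (83.0 and 106 FPM, 0.36, 0.28 to 0.43), with Flt3 again the one lower (-0.39, -0.46 to -0.32), against 8.29% higher and 2.6% lower of all gene bodies.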

How the data were processed

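Per the labels, nuclei of sorted HSCs went through a droplet kit (Chromium Single Cell ATAC, 10x Genomics). With Cell Ranger ATAC the authors mapped reads to mm10, collapsed duplicates, corrected fragment ends for the transposase offset, and called cells and peaks per library. The deposited files hold unique fragments and counts per barcode without normalization. The methods name a version of that program whose layout differs from the deposited barcode table, so none is given here. The cells used are fewer than the study describes, and no doublet caller was run.

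Genes and lists were chosen with earlier results of these data known. Fragments with an end in a region were counted there once. Peaks were called on cut sites in sliding windows against the surrounding 10000 bp (Poisson, q under 0.001), joined over gaps of 50 bp and over libraries. GENCODE M21 gave the genes. The rule named, for each gene, the peak with the most fragments and those with the highest and lowest ratio (at least 100 fragments). Further peaks, the deciles of coverage and the 5-kb windows were chosen after values were seen. The lowest Meis2 peak overlaps a UTR, and the lowest Pbx3 peak has an interval that holds 0; neither sequence is shown. Ratios carry the interval of the binomial share. Counting, intervals and peak calls were tested on simulated data (Python 3.11.15, numpy 2.4.6; edgeR 4.0.16 for TMM scaling). Alternatives covered cell limits, depth, scaling, windows and fragment length.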

Additional observations from a re-analysis of the deposited data

Results flagged for a closer look

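Among the barcodes left out of the comparisons, the Pbx3 gene body was higher in the aged library in both sets below. The Meis2 gene body was higher in those not called as cells and level in the other set. In barcodes with 3000 to 20000 in-peak fragments that were not called as cells (123 young, 131 aged), the Meis2 gene body had 61 young and 132 aged fragments, a ratio of 0.79 (0.36 to 1.27), and the Pbx3 gene body 63 and 162 fragments, a ratio of 1.04 (0.62 to 1.496). In these barcodes the other gene bodies were mostly higher too, so the rise was not particular to Meis2 and Pbx3. Pknox1 was higher by 0.95 (0.20 to 1.85), Meis3 by 0.69 (-0.51 to 2.20) and Meis1 by 0.33 (0.07 to 0.61), with Pbx2 at -0.31 (-1.34 to 0.72). In barcodes called as cells but outside the limits (141 young, 289 aged), Pbx3 had 58 and 532 fragments, a ratio of 0.61 (0.24 to 1.05), and Meis2 had 52 and 321 fragments, a ratio of 0.036 (-0.37 to 0.51). Pknox1 had 19 and 170 fragments there, a ratio of 0.53 (-0.09 to 1.36). The 141 young barcodes of this set held 499382 in-peak fragments and the 289 aged ones 2958530, so shallow young barcodes were set against deeper aged ones. The others were Meis3 at 0.26 (-0.66 to 1.68), Meis1 at 0.17 (-0.05 to 0.40) and Pbx2 at -0.11 (-0.79 to 0.80). These barcodes come from the same 2 libraries and are no replicates. Groups of 1 library allowed no search for outlying samples.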

How the results depend on the processing

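Each promoter ratio was recomputed under 15 settings and each gene body ratio under 13. Of these values, 87 promoter and 72 gene body ratios stayed within the counting interval of the reported value, 3 and 6 moved beyond it, and no ratio past the size of 0.32 changed sign. The Meis2 gene body ran from 0.52 to 0.66 and Pbx3 from 0.34 to 0.64, and the Meis2 promoter from 0.30, under that size, with the flanking density subtracted to 0.54 within 5 kb.

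The promoter ratio of Pbx2 was -0.24 in cells with up to 10000 in-peak fragments, that of Pknox1 -0.042 with short fragments alone, and that of Pbx3 0.20 within 5 kb. The gene body ratio of Meis1 was -0.0082 in thinned cells and -0.12 with short fragments alone. Outside the combined peaks the gene body ratios were 0.054 for Meis1, 0.52 for Meis2 and 0.64 for Pbx3, and without its promoter Pbx3 gave 0.48. The cause was not tested.

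Counts of peaks and bins depended on the limits by construction. The shares of all peaks and bins under these other limits are not given here, so the counts below cannot be set against a background. With a minimum of 50 fragments, 32 peaks were higher and 9 lower, and 84 bins higher and 20 lower. With 200 fragments, 9 peaks were higher and 1 lower, and 10 bins higher and 1 lower. With the smaller fold used for genes, 41 peaks were higher and 11 lower, and 98 bins higher and 30 lower. With 2-fold, 2 peaks were higher and 0 lower, and 1 bin higher and 0 lower. Stricter peak calls left 16 and 2. The start of the principal transcript was added as a setting after the data were seen.

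No paired analysis was possible because each age has 1 library. Counting error is the sole error measured: animal, sort and library differences cannot be told apart from age.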

Other observations

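Genes that start in the flanks of the 6 genes gave further values, of which a selection follows. Near Pknox1, Cbs, an enzyme of homocysteine metabolism, had 626 young and 523 aged fragments at its promoter (0.15, -0.02 to 0.32), Wdr4 had -0.09 (-0.20 to 0.01) and U2af1, a splicing factor, -0.07 (-0.17 to 0.04). Gm38099, also near Pknox1, had 121 and 130 fragments (0.51, 0.14 to 0.88). Near Meis3, the sodium-calcium exchanger gene Slc8a2 had 645 and 591 fragments (0.28, 0.12 to 0.44), while Napa (-0.09, -0.17 to -0.02) and Inafm1 (-0.11, -0.20 to -0.03) lay near the median of all promoters. Near Pbx2, Notch4, which encodes a Notch receptor, had 119 and 70 fragments (-0.35, -0.81 to 0.08), Egfl8 107 and 54 (-0.57, -1.08 to -0.10) and Gpsm3 460 and 288 (-0.27, -0.49 to -0.05). The other neighbours of Pbx2 with at least 100 fragments went in both directions, from Tnxb (-0.37, -0.81 to 0.04) to Ager (0.30, -0.22 to 0.81). The promoter of Mapkap1, upstream of Pbx3, had a ratio of -0.12 (-0.26 to 0.02).

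Fragment lengths also differed between the genes. Fragments under the length of DNA on a nucleosome made up 83.7% young and 83.8% aged of those at the Pknox1 promoter, 62.7% and 59.2% at Meis1, and 52.2% and 50.5% at Meis2. Over the gene bodies the shares were 56.9% and 50.9% at Meis1, 50.7% and 46.3% at Pbx3 and 42.7% and 41.5% at Meis2.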
